A study of Mus musculus with 6 samples.

Results

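Messenger RNA of 31 genes of the complement system was followed in cultured stromal cells of mouse fat that had been kept for 3 days with irisin or with vehicle. The genes were taken by symbol from a count table of 55011 genes, and all 31 were found. They cover the C1 proteases, the C1q chains, C4 and C2, C3 and the alternative pathway, terminal components, receptors and inhibitors. Of these, 20 passed the low-count filter of the test across all genes and 11 did not. The cells were stromal cells of visceral adipose tissue, called eWAT in the design text, and were negative for an EGFP reporter of Il33, which all 6 libraries share. Phosphate-buffered saline (PBS) was given to 3 samples and 10 nM irisin/HSP90α to the other 3, called irisin here. Irisin is a hormone shed from Fndc5, a membrane protein of muscle. HSP90α is a heat shock protein that cells can also secrete. The labels give no strain, sex or age, do not say whether PBS wells held HSP90α, and do not say whether replicates were separate cultures or animals. The p-values therefore speak only of the variation among these samples, part or all of which may be technical.

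Complement is a cascade of plasma proteins that marks particles for uptake and can pierce membranes. In the classical pathway C1q binds a target and, of its partner proteases C1r and C1s, C1s cuts C4 and C2. The alternative pathway amplifies cleavage of C3 through factor B, and cleavage of C5 starts the membrane attack complex of C5 to C9. Liver makes most of the circulating protein, macrophages make C1q, and fibroblasts and adipocytes make several components locally.

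Total counts per library lay between 5271309 and 6745799, and levels are CPM, counts scaled to library size with TMM factors. On that scale a level of 1 CPM stood on 5.17 to 6.89 counts. Stromal genes were abundant: the summed level of 8 stromal markers ran from 36695 to 44322 CPM in PBS and from 50354 to 55317 CPM in irisin. Of these 8, Pdgfra and Col1a1 were called higher (log2 fold change 0.60 and 0.49, edgeR adjusted p = 0.00062 and 0.0155), Lum and Thy1 were called lower (-0.76 and -1.30, adjusted p = 0.00659 and 0.00138), and the other 4 did not pass. The T cell gene Cd3e and the neutrophil gene Ly6g had no read in any library. Of 9 mesothelial markers, Msln and Upk3b had at most 3 reads and Upk1b none, while Wt1 stood at 37.5 CPM in PBS and 43.2 CPM in irisin on average and Krt18 had 0 to 42 reads. The mesothelial sum was 37.4 to 45.0 CPM in PBS and 44.1 to 56.6 CPM in irisin, and none of the 3 that could be tested was called. Among 7 endothelial markers Pecam1 and Cdh5 had at most 6 reads, but Tek, the 1 that could be tested, was called lower (33.8 to 22.4 CPM, log2 fold change -0.59, edgeR adjusted p = 0.0303). With it the endothelial sum went from between 31.1 and 38.0 CPM to between 18.4 and 26.2 CPM. Adipocyte genes were present and lower with irisin: of 6 mature adipocyte markers 5 could be tested and all 5 were called lower, while Lep was at 0 in each library. The summed level of the adipocyte markers ran from 124 to 167 CPM in PBS and from 34.2 to 34.8 CPM in irisin (exact permutation test, two-sided p = 0.1, the smallest that 3 against 3 allows). The part of the stromal, endothelial and adipocyte differences in the complement results was not tested. In bulk RNA, fewer cells of a type and less RNA per cell cannot be told apart. The second principal component (23.9% of variance) parted 2 libraries, PBS replicate 3 and irisin replicate 1, from the other 4, so results without both are given below.

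With irisin, 8 of the 20 tested complement genes rose and 2 fell. The rises were the C1 proteases C1ra, C1s1, C1rb and C1s2, the central component C3, factor B (Cfb), C1 inhibitor (Serping1) and clusterin (Clu). The falls were the terminal component C7 and vitronectin (Vtn). The other 10 tested genes did not pass. A call means that the Benjamini-Hochberg adjusted p of edgeR's quasi-likelihood test lay under 0.05. The adjustment ran over 12296 genes, of which 7.42% were called, 4.2% as higher and 3.22% as lower. Among the 20 members the called share was 50%, and their median log2 fold change was 0.37 against -0.01 over all genes tested. C1rb and C1s2 entered the test only through their irisin libraries, so they had to differ; without this pair 6 of 18 members rose and 2 fell, with a median of 0.34. In a fit that omitted the 2 libraries that stood apart, a choice made after the data were seen, 9 members rose and 4 fell. The additions were C2, which rose, and C4b and C1qbp, which fell. In the same fit 1680 of all 12432 genes tested were called, 892 as higher and 788 as lower. The 4 libraries kept are the closest pair of each group, so that choice favours calls. The dot plot of library values shows each tested member.

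**Figure D1:**
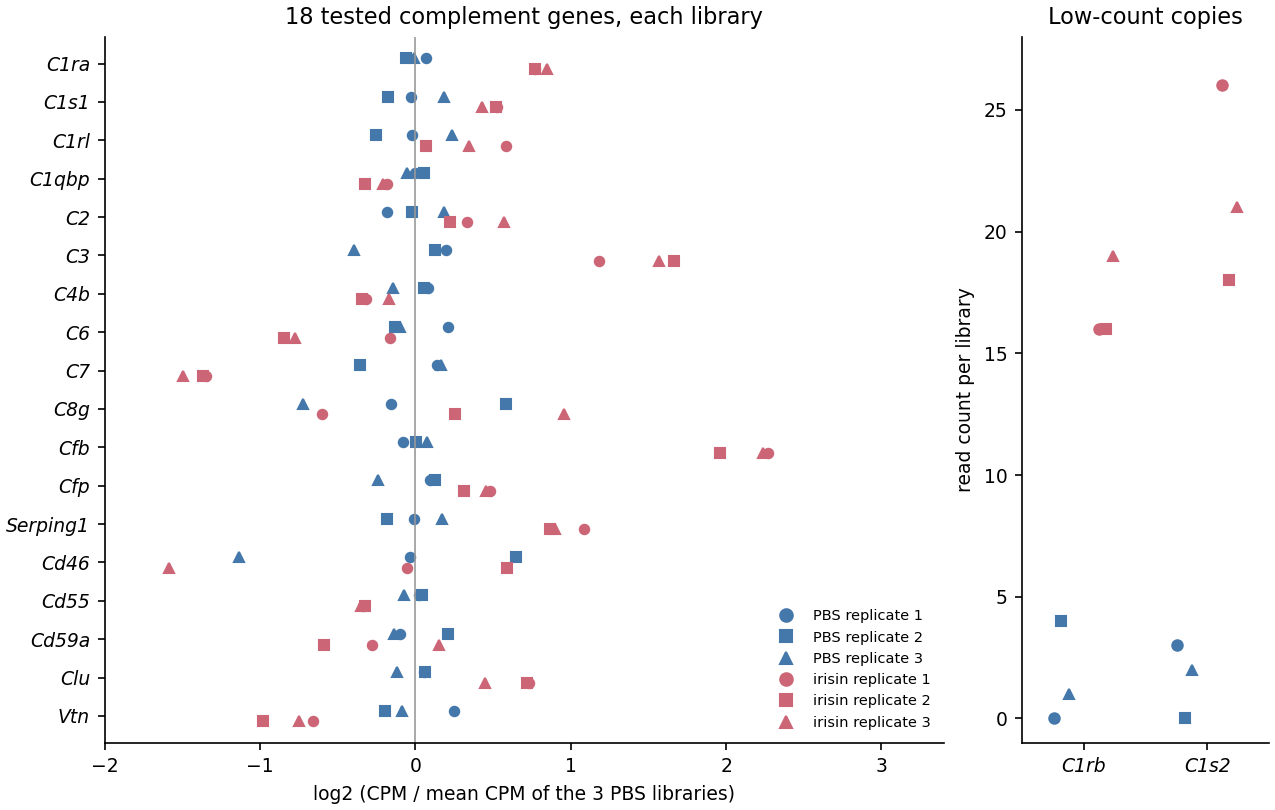
Left, log2 of the CPM in each library over the mean of the 3 PBS libraries for 18 tested members (rows); circles, squares and triangles are replicates 1, 2 and 3, blue PBS and red irisin. Right, read counts of the low-count copies C1rb and C1s2. Cfb and C3 lie farthest to the right in irisin and C7 farthest to the left among the called genes, with no overlap of groups.

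C3, the protein on which all pathways converge, was the most abundant member per kilobase of exon after Serping1 and rose 2.80-fold (95% interval 2.12 to 3.70). It was measured at 2036, 1942 and 1352 CPM in PBS replicates 1, 2 and 3. In irisin replicates 1, 2 and 3 it stood at 4027, 5625 and 5274 CPM. PBS replicate 3 was the lowest and irisin replicate 1 the lowest of its group, and the groups did not overlap (log2 fold change 1.49 ± 0.18 standard error, adjusted p = 0.000807). Without these 2 libraries the log2 fold change was 1.46. C3 took 0.139% to 0.208% of all counts in PBS libraries and 0.393% to 0.543% in irisin libraries.

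Factor B is the protease that joins C3 to form the alternative pathway convertase. Cfb had the largest fitted rise among members with more than 100 counts in each library. It stood at 22.5, 23.9 and 25.0 CPM in PBS and at 115, 92.6 and 112 CPM in irisin. Every irisin library was far above every PBS library (4.48-fold, 95% interval 3.75 to 5.37, log2 fold change 2.16 ± 0.12, adjusted p = 1.39e-07). Properdin (Cfp), which stabilises that convertase, was near the detection limit, at 10 to 16 counts in PBS and 14 to 19 in irisin, and did not pass (adjusted p = 0.587). Cfb lies on chromosome 17 from 34856374 to 34862518 and C3 on the same chromosome from 57203970 to 57228136, in GRCm38 (mm10) with GENCODE M21. Cfb shares 2246 exon bases, 79.5% of its own, with the predicted gene Gm20547 on the same strand, which had no read in any library. The value of Cfb is uncertain to the extent that counting could divide or leave out reads there.

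The 250 bases before the start that RefSeq gives C3 and C1s1, which rose, and C7, which fell, are shown. They were picked as windows of called genes that lie outside the gene and held a match. The windows are from build GRCm38.p6, on the gene's strand, and GENCODE M21 places none of these bases inside the gene. C3 is chr17:57228137-57228386 (minus strand), C1s1 chr6:124542360-124542609 (minus, the outer of its 2 RefSeq starts) and C7 chr15:5063774-5064023 (minus). Capitals mark matches on either strand to the letters searched, which were TTGCNNAA (C/EBP), TTCNNNGAA (STAT), GAAANNGAA (IRF), TATAAA (the box found near many starts) and the NF-κB consensus by its name.
C3: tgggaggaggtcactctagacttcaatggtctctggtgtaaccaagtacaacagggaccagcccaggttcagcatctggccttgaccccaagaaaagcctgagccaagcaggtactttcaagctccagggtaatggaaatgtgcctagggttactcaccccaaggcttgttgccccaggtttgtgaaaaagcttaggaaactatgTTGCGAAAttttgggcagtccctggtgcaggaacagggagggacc
C1s1: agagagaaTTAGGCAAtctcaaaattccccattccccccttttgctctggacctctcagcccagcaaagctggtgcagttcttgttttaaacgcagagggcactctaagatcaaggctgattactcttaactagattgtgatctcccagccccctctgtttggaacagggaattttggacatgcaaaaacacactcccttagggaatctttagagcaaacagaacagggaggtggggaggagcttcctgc
C7: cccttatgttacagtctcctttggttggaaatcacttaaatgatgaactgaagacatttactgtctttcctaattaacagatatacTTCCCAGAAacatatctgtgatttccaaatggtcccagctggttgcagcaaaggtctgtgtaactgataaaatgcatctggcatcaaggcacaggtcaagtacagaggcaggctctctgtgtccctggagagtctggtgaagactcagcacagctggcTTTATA
In C3 the match was to C/EBP, from 45 to 38 bases before the start. In C1s1 it was also to C/EBP, from 242 to 235 bases before, while the window of its other RefSeq start held no match. C7 held a STAT match (164 to 156) and, on the opposite strand, a TATA match at its start (6 to 1). Of 32851 windows of this length, 9.56% held the C/EBP letters, 7.02% STAT, 7.13% IRF, 3.90% the NF-κB consensus and 12.4% the TATA letters. RefSeq gave 23 windows for 21 of the 31 members. Cfb, Serping1 and Clu, all called higher, had no window, so no letters were searched before them. C1ra and C1s2, also called higher, had windows without a match. That of C1s2 lies clear of its GENCODE gene and is not shown. The 2 annotations differ in where genes start: 12 of the 23 windows reach into the gene as GENCODE M21 places it. Among them are those of C1ra (216 of 250 bases in its exon), C1rb (136 of 250) and C1qc (151 of 250). The matches in C1rb and C1qc lie in those exons. The window of C5ar1 has 202 of 250 bases inside its gene. Among those 21 genes, C/EBP letters were in C1rb, C1rl, C1s1 and C3, STAT letters in C1rb and C7, IRF letters in C5ar1 and Cd59a, the NF-κB consensus in C1qc and TATA letters in C3ar1, C7, Hc and Vtn. A match of letters is a description and no binding was measured.

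The C1 protease genes C1ra and C1s1 rose, in cells with almost no C1q message. C1ra, which encodes C1r, stood at 203, 186 and 193 CPM in PBS and at 331, 331 and 349 CPM in irisin. The groups were wide apart (1.74-fold, 95% interval 1.54 to 1.96, log2 fold change 0.79 ± 0.08, adjusted p = 2.61e-05). C1s1, which encodes the C1s that cuts C4 and C2, ran from 489, 443 and 567 CPM to 721, 717 and 673 CPM. Its rise was smaller, 1.41-fold (95% interval 1.22 to 1.63, log2 fold change 0.49 ± 0.10, adjusted p = 0.00603), and again no libraries overlapped. C1rl, a C1r-like protease, overlapped between groups and did not pass (20.6 ± 3.53 to 26.3 ± 4.62 CPM, SD, n = 3, edgeR adjusted p = 0.302).

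Mouse carries a second copy of each protease gene next to the first. C1rl, C1ra, C1s1, C1rb and C1s2 lie within 143 kb of chromosome 6, from 124493113 to 124636085. C1rb had 0, 4 and 1 reads in the PBS libraries and 16, 16 and 19 in the irisin libraries. C1s2 had 3, 0 and 2 reads in PBS and 26, 18 and 21 in irisin. Both passed the low-count filter only through their irisin libraries, so they had to differ. Both were called higher (edgeR adjusted p = 0.00434 and 0.0009), on 5 reads in all PBS libraries together for each gene. Their fitted folds, 10.0 (95% interval 3.93 to 25.4) for C1rb and 12.7 (5.5 to 29.4) for C1s2, rest on those few reads. Transcripts of C1ra and C1rb were 97.9% identical over 2432 aligned positions, and 59.2% of the 50-base windows of C1rb occurred unchanged in C1ra. For C1s1 and C1s2 the identity was 96.0%, and 26.9% of the windows of C1s2 occurred in C1s1. Counting could divide reads within each pair, and the read length is not given in the sources used here. C1rb took 0 to 0.339% of the reads of its pair in PBS and 0.768% to 0.924% in irisin. C1s2 took 0 to 0.0889% in PBS and 0.483% to 0.574% in irisin.

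The C1q chains, which form the recognition part of C1 and are typical products of macrophages, were all but absent. C1qa had no read in any library, which allows up to 0.435 to 0.580 CPM per library (3 reads, counting error only). C1qb and C1qc together had 7 reads in PBS, 6 of them in PBS replicate 1, and none in irisin. The macrophage markers Ptprc and Adgre1 reached at most 3 and 10 reads. The summed level of 13 macrophage markers ran from 67.2 to 85.2 CPM in PBS and from 63.0 to 89.2 CPM in irisin, mostly from Csf1r (59.7 and 59.2 CPM on average), and none of the 3 that could be tested was called. C1qbp, a mainly mitochondrial protein that can bind C1q, was at 104, 108 and 101 CPM in PBS and at 91.9, 83.5 and 90.2 CPM in irisin. Its groups did not overlap but it did not pass (log2 fold change -0.24 ± 0.09, adjusted p = 0.168), except without PBS replicate 3 and irisin replicate 1 (adjusted p = 0.0197, range over 14 alternatives 0.0197 to 0.478). Cd93, once named a C1q receptor and typical of endothelium, had 0 to 2 reads per library and was not tested. Masp1, a protease of the lectin pathway, had 2 to 14 reads and was not tested.

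C4 and C2, the substrates of C1s, did not pass. C4b was abundant, at 871, 853 and 745 CPM in PBS and 660, 647 and 731 CPM in irisin. All irisin values were below all PBS values, by a log2 fold change of -0.28 ± 0.09 (adjusted p = 0.0939). This gene sits close to the threshold: it was called lower when libraries were scaled by total counts (adjusted p = 0.0284), without the low-count filter (0.0373) and without PBS replicate 3 (0.00435), within a range of 2.83e-05 to 0.353 over 14 alternatives. C4a, its neighbour and 96.0% identical copy, which GENCODE lists as a processed transcript, had 3 to 7 reads per library and 0.05% to 0.209% of the reads of the pair. C2 stood at 20.3, 22.7 and 26.1 CPM in PBS and 29.0, 26.9 and 34.3 CPM in irisin (log2 fold change 0.39 ± 0.15, adjusted p = 0.163). It was called higher without PBS replicate 3 (adjusted p = 0.0480, range over alternatives 0.0207 to 0.493). Of its exon bases, 42.8% are shared with Gm20547 and 4.16% with Zbtb12 on the other strand. C4b, C4a, Cfb and C2 lie within 170 kb of chromosome 17 (34728380 to 34898265), and only Cfb of these 4 neighbours was called.

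**Figure D2:**
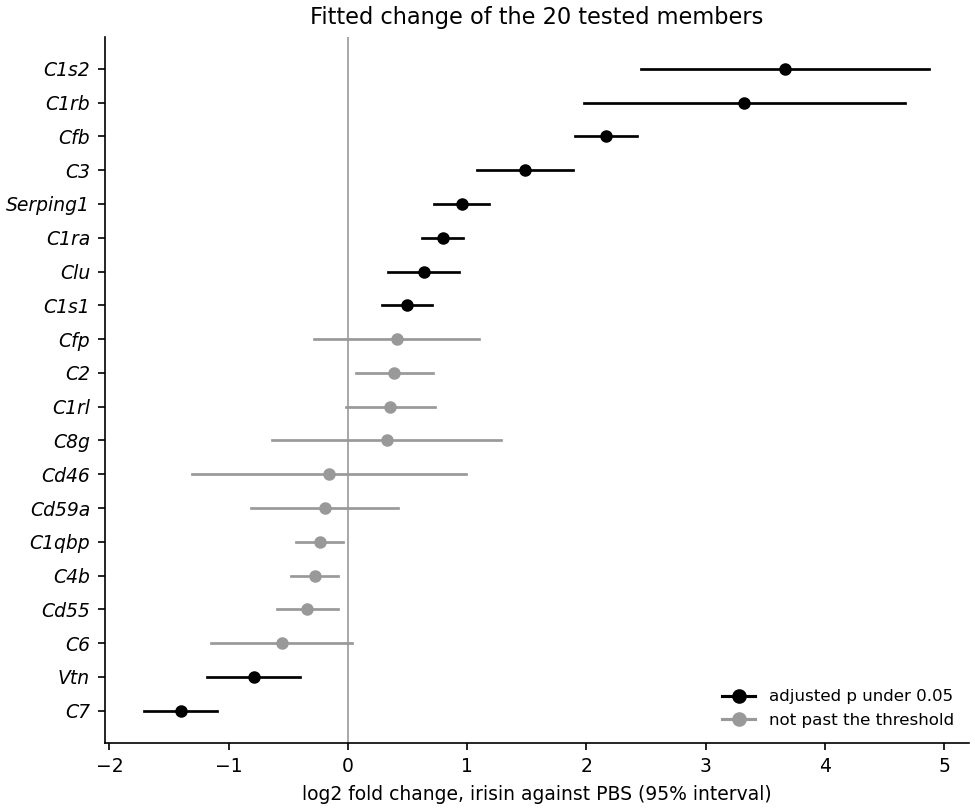
Fitted log2 fold change of irisin against PBS (horizontal axis) with its 95% interval for the 20 tested members, ordered by size; black marks genes past adjusted p 0.05 and grey the others. C1s2 and C1rb have the widest intervals among the called genes, and Cfb, C3, Serping1, C1ra, Clu and C1s1 follow with narrower ones.

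Of the terminal components, which assemble the membrane attack complex, C7 fell. It was at 102, 72.4 and 104 CPM in PBS and at 36.5, 35.9 and 32.8 CPM in irisin. The irisin libraries were tightly grouped and far below PBS (2.64-fold lower, log2 fold change -1.40 ± 0.14, adjusted p = 2.61e-05), and without PBS replicate 3 and irisin replicate 1 the log2 fold change was -1.35. C6, its neighbour within 337 kb on chromosome 15, was low, at 30 to 47 reads in PBS and 17 to 33 in irisin, and did not pass (log2 fold change -0.55 ± 0.27, adjusted p = 0.314). C8g, the gamma chain of C8, overlapped between groups (8 to 23 reads in PBS, 10 to 30 in irisin, edgeR adjusted p = 0.798). Hc, the mouse name of the C5 gene, had 1 to 9 reads and was not tested. The anaphylatoxin receptors C3ar1 and C5ar1 had 0 to 5 and 0 to 7 reads per library and were not tested either.

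Among inhibitors in body fluid, C1 inhibitor and clusterin rose and vitronectin fell. Serping1, which encodes the C1 inhibitor that inactivates C1r and C1s, was at 2241, 1988 and 2541 CPM in PBS and 4778, 4121 and 4207 CPM in irisin. It rose 1.94-fold with no overlap of groups (95% interval 1.65 to 2.27, log2 fold change 0.95 ± 0.10, adjusted p = 5.66e-05). Clu, a chaperone that keeps the attack complex out of membranes, rose from 21.8, 21.9 and 19.3 CPM to 34.9, 34.6 and 28.6 CPM (log2 fold change 0.63 ± 0.14, adjusted p = 0.0113). It was no longer called without irisin replicate 1 or 2 (adjusted p = 0.0510 and 0.0674, range over 14 alternatives 0.00312 to 0.0674). Vtn, an adhesive protein that also binds the attack complex, fell from 22.2, 16.3 and 17.7 CPM to 11.8, 9.47 and 11.2 CPM (log2 fold change -0.79 ± 0.18, adjusted p = 0.0157). Its call was lost without PBS replicate 1, irisin replicate 2 or irisin replicate 3 (adjusted p = 0.0971, 0.0875 and 0.0591, range 0.00178 to 0.0971). Cfi, the protease that destroys active C3 and C4, and C4bp, its cofactor for C4, had at most 7 and 1 reads and were not tested.

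The membrane inhibitors did not pass. Cd55, which speeds the decay of convertases, was at 35.0, 35.5 and 32.8 CPM in PBS and 27.2, 27.4 and 27.0 CPM in irisin. The groups did not overlap (log2 fold change -0.34 ± 0.12, adjusted p = 0.115), and it was called lower with total counts alone (adjusted p = 0.0459, range over 14 alternatives 0.0459 to 0.301). Cd59a, which blocks the last step of the attack complex, had 16 to 34 reads and Cd46, a cofactor of factor I, 6 to 28, with overlapping groups (edgeR adjusted p = 0.816 and 0.931). The 95% interval of Cd46 ran from 0.405-fold to 1.98-fold, and its level in the PBS libraries alone ran from 1.29 to 4.44 CPM. Of its exon bases, 14.2% are shared with A330023F24Rik on the other strand, which had 0 to 18 reads per library. The strand setting is not given, so counting could have divided or left out reads there. Over the 20 tested members, 16 had groups that did not overlap, 10 with irisin higher and 6 with irisin lower. Without C1rb and C1s2, whose direction the filter fixed, the count was 14 of 18, with 8 higher and 6 lower. Over all genes tested the share was 23.6%, with 12.1% higher and 11.5% lower.

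Levels of different genes are set side by side only per kilobase of exon. Serping1 was highest in both groups (971 ± 119 and 1879 ± 154 CPM per kb, SD, n = 3), followed by C3 (345 ± 72.0 and 967 ± 163), C1s1 (160 ± 20.0 and 225 ± 8.51), C4b (145 ± 12.0 and 119 ± 7.89) and C1ra (65.2 ± 2.87 and 113 ± 3.52). In PBS the levels per kb of C1s1 and C4b differed by less than their spread. Below them, Cfb went from rank 9 to rank 6 of the 31 members and Vtn from rank 8 to rank 13. The levels of Cfb and C2 are divided by all their exon bases, of which 79.5% and 42.8% are shared with Gm20547. If counting left out reads there, the levels per kb and ranks of both genes are too low. The same holds for C1ra, C1s1 and C4b if reads that match their copies were left out. Of their 50-base windows, 48.0%, 24.3% and 35.2% occurred unchanged in C1rb, C1s2 and C4a. C1s1 also shares 18.4% of its exon bases with Gm16567 on the other strand, which had no read in any library. All 31 members together held 0.586% to 0.635% of the counts in PBS and 1.07% to 1.14% in irisin, and C3 with Serping1 made up 67.5% to 68.8% of that in PBS and 80.6% to 82.6% in irisin.

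**Figure D3:**
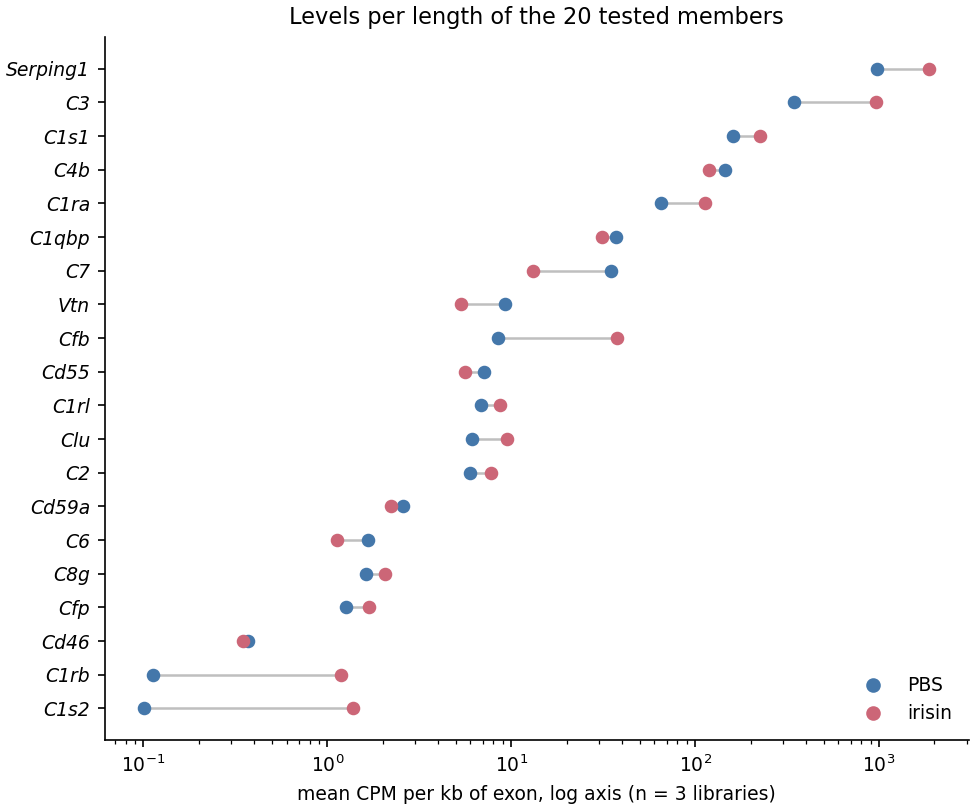
Mean CPM per kb of exon over 3 libraries per group (log axis) for the 20 tested members, ordered by the PBS level; blue is PBS, red irisin, and a grey line joins both. The upper 5 genes hold the same order in both groups, and Cfb passes Vtn, C7 and C1qbp. The levels of Cfb and C2 are too low if reads in the exons shared with Gm20547 were left out. Those of C1ra, C1s1 and C4b are too low if reads that match their copies were left out.

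Ratios of reads within a library do not depend on scaling. Reads of C4b per read of C3 were 0.428, 0.440 and 0.551 in PBS and 0.164, 0.115 and 0.139 in irisin. Reads of C2 per read of Cfb, both proteases of a C3 convertase, were 0.903, 0.947 and 1.04 in PBS and 0.252, 0.290 and 0.304 in irisin. Reads of Serping1 per read of its targets C1ra and C1s1 together went from 3.25 ± 0.0932 to 4.20 ± 0.315 (SD, n = 3). C7 reads per C3 read lay between 0.0373 and 0.0768 in PBS and between 0.00623 and 0.00906 in irisin. C1s1 reads per C1ra read were 2.57 ± 0.317 and 2.09 ± 0.142. In each of these 5 ratios the groups did not overlap (exact two-sided permutation p = 0.1, the smallest possible, and 0.14 adjusted over 7 ratios). For C4b per C3 and C7 per C3 this had to be so. In every irisin library C3 was higher, and C4b and C7 lower, than in any PBS library. For reads of Cfb per read of C3 the groups overlapped (exact permutation p = 0.2), and for the share of C4a too (p = 0.3). The ratios were chosen with the members' values known, so their p-values are a description and no support for a change.

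**Figure D4:**
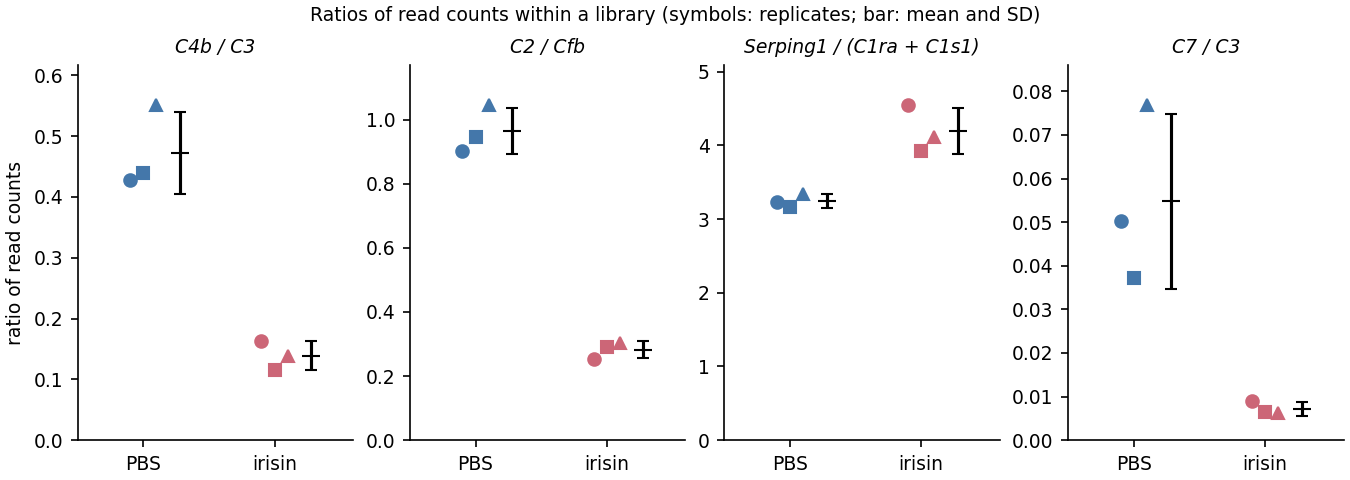
Ratio of read counts within each library (vertical axis, from 0) for 4 pairs of members, by group; symbols are replicates 1 to 3 and the black bar is the mean with SD. C4b per C3, C2 per Cfb and C7 per C3 are lower in all irisin libraries, and Serping1 per C1ra plus C1s1 is higher.

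Of 36 other complement genes in the table, 8 could be tested, and 2 rose and 2 fell. Over all genes tested 7.42% were called, 4.2% as higher and 3.22% as lower. Ptx3, a long pentraxin that binds C1q, rose from 59.9, 84.6 and 50.1 CPM to 349, 342 and 281 CPM (log2 fold change 2.32 ± 0.18, adjusted p = 5.61e-05). Its call was lost without PBS replicate 3 and irisin replicate 1 (log2 fold change 2.11, adjusted p = 0.0524, the highest of 14 alternatives). Csmd1, a membrane protein with complement-control domains, rose from 10 to 27 reads in PBS to 58 to 112 in irisin (adjusted p = 0.00041). Cfd, the adipocyte protease that cuts factor B, fell from 101, 43.7 and 64.1 CPM to 18.2, 12.8 and 9.43 CPM (adjusted p = 0.0182). Its log2 fold change was -2.37, and it lay between -2.72 and -1.99 in the 14 alternatives. Cfd was no longer called without PBS replicate 3 (adjusted p = 0.110), without irisin replicate 2 (0.0857), without the low-count filter (0.0891) or without PBS replicate 3 and irisin replicate 1 together (0.231, range over alternatives 2.92e-06 to 0.231). Within the alternative pathway, C3 and Cfb were higher while Cfd was lower. Colec12, Cr1l, Calr and Lrp1 did not pass. Colec12, a scavenger receptor of the collectin family, was close to the threshold, at 421, 424 and 481 CPM in PBS and 371, 354 and 357 CPM in irisin (log2 fold change -0.29 ± 0.08, adjusted p = 0.0531). It was called lower in 5 of 14 alternatives, with total counts, without the low-count filter, with a count minimum of 50, without PBS replicate 3, and without that library and irisin replicate 1 together (range 0.00114 to 0.228). Cr1l, the rodent membrane inhibitor Crry, was at 115 ± 15.0 CPM in PBS and 122 ± 9.76 CPM in irisin (SD, n = 3, edgeR adjusted p = 0.785). Of the other 28, 8 had no read in any library, among them the terminal gene C8a and the lectin gene Mbl1.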

How the data were processed

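Polyadenylated RNA of 3 PBS and 3 irisin libraries was sequenced after lysis in TCL buffer, per the labels' protocols. STAR 2.7.3a, featureCounts and the build mm10 are named in the submitters' processing notes. Not given in the sources used here are annotation, strand setting, read length and multi-mapping rule. The deposited values are raw read counts by gene symbol, as the authors left them. From them, edgeR 4.0.16 (R 4.3.3) computed TMM factors, filterByExpr (count minimum 10) kept 12296 genes, and irisin was tested against PBS by robust quasi-likelihood, with Benjamini-Hochberg adjustment and a threshold of 0.05. CPM divides counts by the TMM-scaled sum of tested genes. The 95% intervals use the test's total degrees of freedom, which add prior degrees of freedom from all genes to the residual ones. On simulated data for irisin against PBS (12152 genes), 38% of 1.5-fold and 84% of 2-fold changes were recovered, and 9 of 169 calls were unchanged genes. The simulation changed 50 genes per fold and gave all genes the same relative spread beyond counting error (0.121). Its libraries were independent, with none standing apart, so these rates may not hold for the real data.

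Replicate numbers occur in both groups but tie no samples together in the labels. No library repeated another (chi-square per degree of freedom at least 2.71). Members named with library values are those past the threshold and those near it or abundant; other tested members and those under the filter are given by reads. Alternatives were RLE factors, total counts, DESeq2 1.42.0, limma-voom (limma 3.58.1), no filter, a count minimum of 50, a replicate block and each library left out. The members, the other complement list, the ratios and the marker lists were chosen with earlier results of these data known. Transcripts were aligned with Biopython 1.88. The values of 1 gene of the other complement list are not reported here, though the counts over that list include it.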

Additional observations from a re-analysis of the deposited data

How the results depend on the processing

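The calls of C3, Cfb, Serping1, C1ra, C1s1 and C7 held in all 14 alternatives. C1rb and C1s2 were called in the 13 that tested them (a count minimum of 50 left them out). Both passed the low-count filter only through their irisin libraries, so these repeated calls are no support for a rise. Complement rises, with this pair where it was tested, numbered 6 with a count minimum of 50 and 8 with the other planned settings on 6 libraries. They numbered 7 to 9 with a library left out. Complement falls numbered 4 with total counts alone, 4 without PBS replicate 3 and irisin replicate 1, and 1 to 3 with single libraries left out. Over all genes, 602 were lower with total counts, against 396. Without both of these libraries 1680 genes were called, 892 higher and 788 lower. With single libraries left out, calls ran from 589 to 1290, with 336 to 705 higher and 238 to 585 lower. Of the other complement genes, 1 was called higher without both libraries, and 1 to 2 were called lower with single libraries left out, against 3 with total counts and 3 with a count minimum of 50. With the replicate block 691 genes were called (422 higher, 269 lower), and the complement counts were 8 and 2 as before. The deviations of libraries with the same number correlated at -0.24, 0.16 and -0.18 across genes. PBS replicate 3 correlated best with irisin replicate 1 (0.36), the libraries that the second principal component parts from the others. With 3 libraries per group, these correlations cannot decide whether the numbers pair the samples. Among genes that did not pass, log2 fold changes changed sign when a library was left out: C8g to -0.15 (up to 0.73 in other settings), Cd46 from -0.65 to 0.31, Calr from -0.048 to 0.21 and Lrp1 from -0.21 to 0.091. At 5 to 7 reads per CPM, 11 members had too few reads for a test.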
